A study of Mus musculus with 2 samples.

Results

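The interferon response is the main antiviral programme of fibroblasts, and its transcripts were examined here in mouse embryonic fibroblasts of the genotypes MatDup.dist7 and PatDup.dist7. A list of 40 genes of this response was taken, and a gene was included where a probe set of the array was annotated to its symbol alone. This held for 37 of the 40 genes, through 38 probe sets, out of 19938 genes measured by 21789 such probe sets. Isg15 and Gbp2 each had only a probe set annotated to several genes, and Ifi44 was not matched to any probe set, so these 3 genes have no value here.

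Each genotype was represented by 1 array of total RNA from embryonic fibroblasts, primary connective-tissue cells grown in serum-containing medium from embryos at 13.5 days post coitum. In MatDup.dist7 embryos both copies of distal chromosome 7 derive from the mother and in PatDup.dist7 embryos both derive from the father, so the groups are reciprocal and neither is a wild-type control. The labels name no interferon, virus or other treatment, and do not give the strain, the sex, the passage number or whether embryos were pooled. There is no replicate, so no test between genotypes was possible, and every difference below compares these arrays and not the genotypes.

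Cells start this programme when sensor proteins bind viral RNA in the cytosol and, through the factors Irf3 and Irf7, switch on interferon genes. Secreted type I interferon binds a receptor of the chains Ifnar1 and Ifnar2, whose kinases Jak1 and Tyk2 phosphorylate Stat2. It joins Irf9 on the interferon-stimulated response element of target promoters, which encode antiviral effectors and proteins that present peptides to T cells. Many of these genes have a basal level without infection, since cultured fibroblasts secrete small amounts of interferon beta.

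The promoter sequences of the list were searched for the element through which the pathway acts. RefSeq promoter windows, from 250 bases before to 50 bases after the annotated start of a gene (build GRCm38.p6), matched 33 of the 40 genes, with 37 windows. No window was available for Dhx58, Mx1, Mx2, Oas2, Parp14, Rtp4 and Usp18. Each window was searched on both strands for the core of the response element, the letters GAAA, then any 2 bases, then GAAA again. It was found in 15 of the 37 windows (40.5%), compared with 1131 of 32851 windows of all genes (3.44%). The 15 windows belonged to 15 genes, of which all but Isg15 and Gbp2 had a value on the arrays. The core TTCNNNGAA of the gamma-activated site, which interferon gamma uses, was found in 9 of the 37 windows (24.3%) and in 8.30% of all windows. A match describes the letters of the window and does not show binding.

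Response element cores were found mainly among effectors. Of 11 antiviral effectors with a window, 9 held the core, as did both RNA sensors with a window, Ddx58 and Ifih1. By contrast 1 of 6 receptor and signalling genes (Stat2) and none of 3 interferon regulatory factor genes held it. Among antigen processing genes it was found in 1 of 5 windows, that of B2m. The genes Tap1 and Psmb9 are divided by so short a stretch that their windows, on opposite strands, share 275 bases (chr17:34187306-34187580), and neither held either core.

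The windows of Ifit1 and Eif2ak2 are shown whole because these genes had the largest differences of the list, and their response element cores are in capitals. On the strand shown, a core that lies on the opposite strand reads as its reverse complement.
Ifit1 (chr19:34640639-34640938, plus strand): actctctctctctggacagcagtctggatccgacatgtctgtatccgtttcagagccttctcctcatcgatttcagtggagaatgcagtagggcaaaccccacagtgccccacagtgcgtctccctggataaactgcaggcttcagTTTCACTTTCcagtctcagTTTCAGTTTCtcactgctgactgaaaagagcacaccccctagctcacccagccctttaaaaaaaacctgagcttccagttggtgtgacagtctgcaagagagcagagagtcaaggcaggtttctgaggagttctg
Eif2ak2 (chr17:78882523-78882822, minus strand): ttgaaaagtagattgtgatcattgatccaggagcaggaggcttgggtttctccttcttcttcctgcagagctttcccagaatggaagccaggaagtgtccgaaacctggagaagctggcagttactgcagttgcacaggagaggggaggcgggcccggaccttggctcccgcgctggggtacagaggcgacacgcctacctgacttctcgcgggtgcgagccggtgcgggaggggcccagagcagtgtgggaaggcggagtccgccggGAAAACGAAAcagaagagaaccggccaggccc
The 2 cores of Ifit1 lie at -104 to -95 and -85 to -76 from the start, whereas that of Eif2ak2 lies at 19 to 28, within the transcribed part.

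The other measured genes with a core are shown by the stretch around it, so that the shared letters can be compared. Capitals again mark the response element cores.
Ddx58 (chr4:40239804-40239833, minus strand): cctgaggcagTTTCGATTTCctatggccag
Ifih1 (chr2:62646206-62646235, minus strand): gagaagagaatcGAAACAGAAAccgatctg
Stat2 (chr10:128270266-128270295, plus strand): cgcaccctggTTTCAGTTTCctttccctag
Ifit3 (chr19:34583368-34583421, plus strand): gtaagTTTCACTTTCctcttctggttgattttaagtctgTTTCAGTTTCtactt
Oas1a (chr5:120907523-120907552, minus strand): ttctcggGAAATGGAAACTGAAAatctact
Oas3 (chr5:120777715-120777744, minus strand): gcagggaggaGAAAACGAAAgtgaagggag
Rsad2 (chr12:26456553-26456582, minus strand): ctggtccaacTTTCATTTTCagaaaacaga
Bst2 (chr8:71537580-71537609, minus strand): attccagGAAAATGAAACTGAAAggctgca
Gbp3 (chr3:142559992-142560021, plus strand): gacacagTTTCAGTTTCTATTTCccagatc
Cxcl10 (chr5:92349083-92349112, minus strand): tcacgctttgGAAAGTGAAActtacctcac
B2m (chr2:122147538-122147567, plus strand): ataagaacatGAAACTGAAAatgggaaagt
Overlapping cores gave Oas1a, Bst2 and Gbp3 a longer run of capitals. In Bst2 the gamma-activated site core, at -136 to -128, also overlapped the first response element core.

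**Figure D1:**
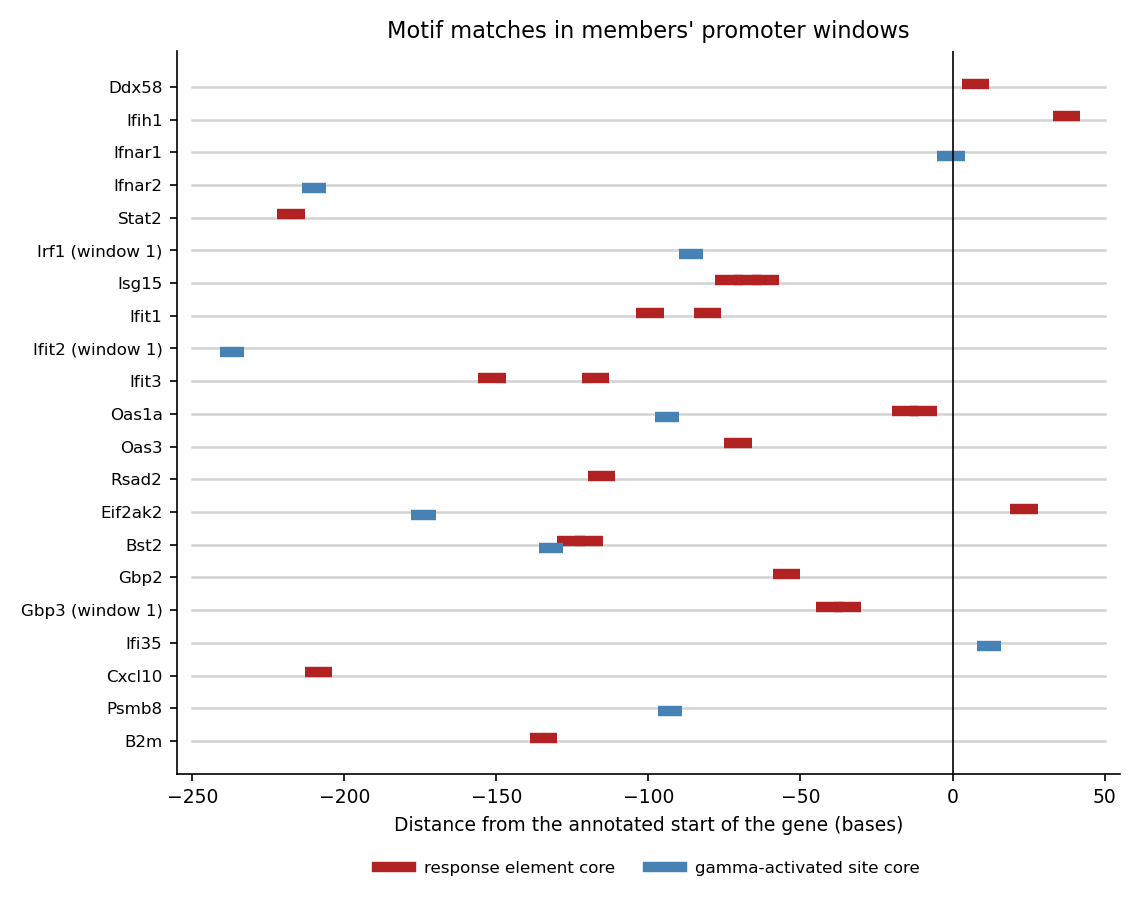
Positions of the response element core (red) and the gamma-activated site core (blue) in the promoter windows of the interferon list, as distance in bases from the annotated start; grey lines are the windows that held either core. The red cores of Ddx58, Ifih1 and Eif2ak2 lie after the start, and those of the other genes before it.

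The values are deposited intensities of each probe set, in arbitrary units on a linear scale. Differences are given as log2(intensity + 16) of MatDup.dist7 minus that of PatDup.dist7, a scale that understates the change of dim probe sets. As intensities of different probe sets depend on their sequences, levels are compared only within a gene. A pair of intensities is always given with MatDup.dist7 first, followed by the log2 difference in brackets. A gene is called above the signal filter where its higher array exceeded an intensity of 66.4, the median of all values. Between probe sets of the same gene the standard deviation of the difference was 0.51 (2850 probe sets of 999 genes), or 0.43 above the filter, which holds no variation between cultures.

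The share of the list beyond 2-fold was close to that of all genes of the arrays. Of the 37 genes, 3 were at least 2-fold apart (8.11%), and so were 7.63% of all 19938 genes. Mx1 was higher in MatDup.dist7 (2.70% of the list, against 4.47% of all genes), and Ifit1 and Eif2ak2 were higher in PatDup.dist7 (5.41%, against 3.16%). With each array centred on its median, the shares of all genes were 3.49% and 4.13%, and Mx1 no longer reached 2-fold. The median difference of the list was -0.16, with 15 of 37 differences above 0 (40.5%), while that of all genes was 0.02, with 51.4% above 0. The median absolute difference was 0.42 for the list and 0.38 for all genes.

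All 3 of these genes lay under the signal filter. Among the 25 genes of the list above the signal filter, none was 2-fold apart, against 5.16% of all genes above it, and the median absolute difference was 0.33. Among the 12 under the filter 3 were (25.0%), against 12.0% of all genes under it, and the median absolute difference was 0.72. The 2-fold rule separated Mx1, at 1.07, from Gbp3 and Mx2, at 0.96 and 0.95.

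**Figure D2:**
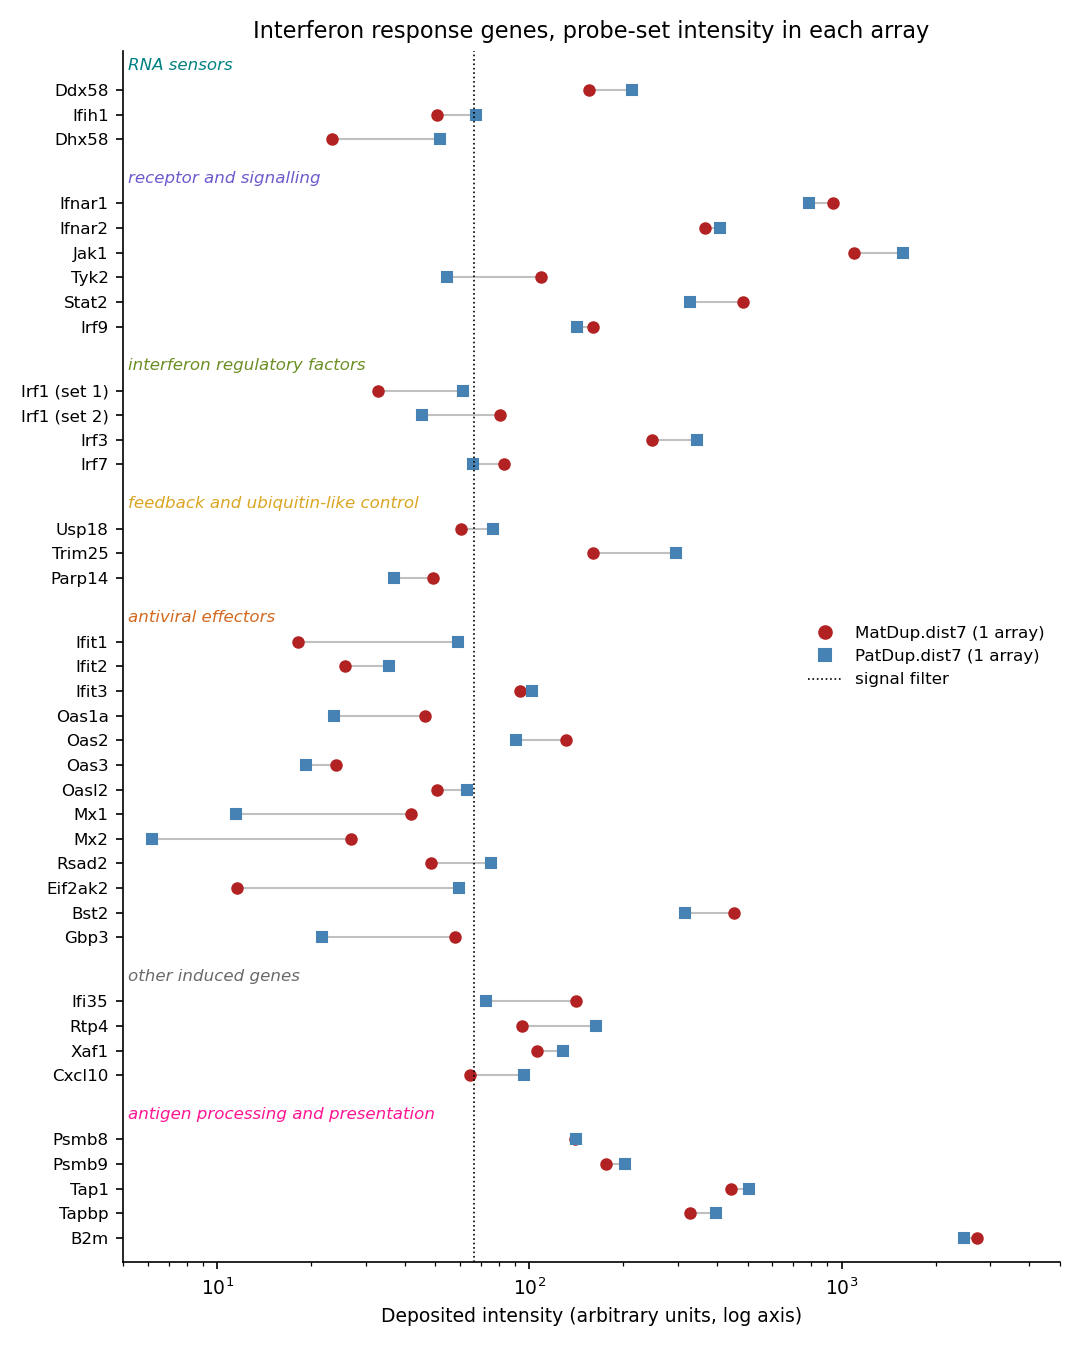
Deposited intensity of each probe set of the list (log axis, arbitrary units) in the MatDup.dist7 array (red circles) and the PatDup.dist7 array (blue squares), by role; the dotted line is the signal filter at 66.4. The longest grey lines, those of Eif2ak2, Ifit1, Mx1 and Mx2, lie left of the filter, and levels should be compared only within a line.

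**Figure D3:**
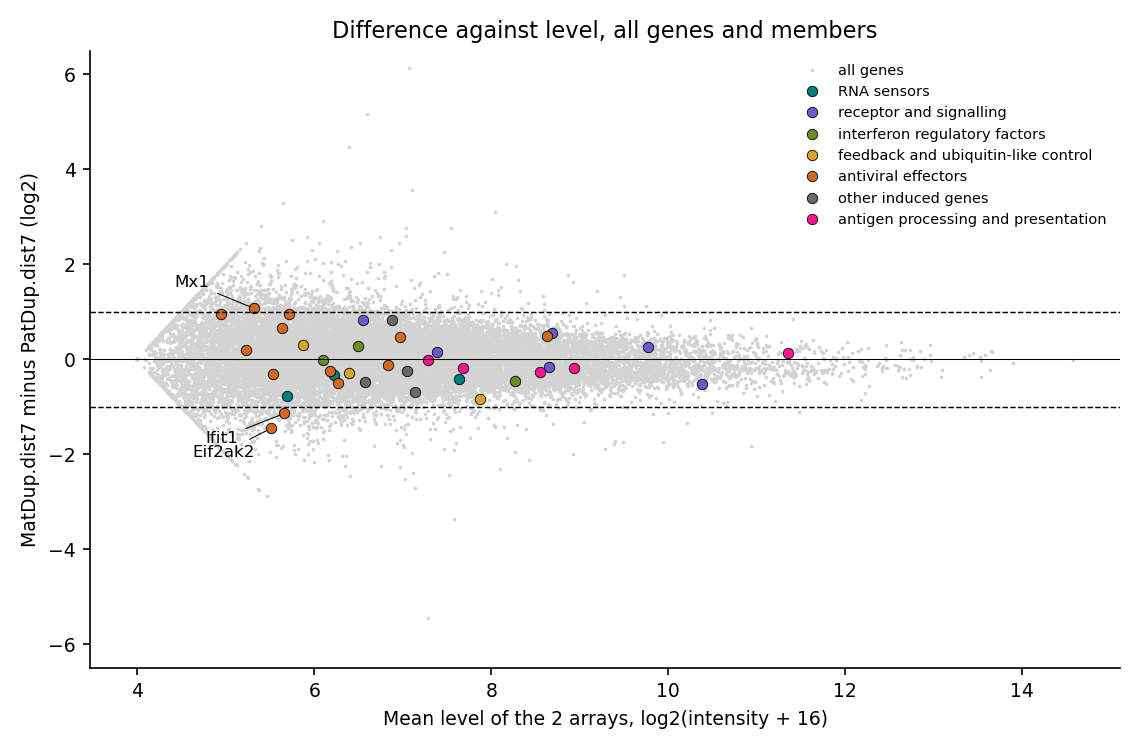
Difference between arrays (log2, MatDup.dist7 minus PatDup.dist7) against the mean level of both arrays for all 19938 genes (grey) and the 37 genes of the list (coloured by role); dashed lines mark 2-fold. Mx1, Ifit1 and Eif2ak2 lie beyond the lines at the dim end, where grey points are also widely spread.

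All 3 RNA sensor genes were lower in MatDup.dist7 and within 2-fold. Ddx58, which encodes the sensor RIG-I, had 155 and 214 (log2 difference -0.42). Ifih1, which encodes the long double-stranded RNA sensor MDA5, had 50.8 and 67.7 (-0.33). Dhx58 encodes a related helicase that lacks the signalling domain and modulates both sensors. It had 23.3 and 51.7 (-0.78), and passed 2-fold with a pseudocount of 1 (-1.11) or with low values raised to the lower quartile of the array values (-1.15).

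Genes of the receptor and its signalling complex lay on both sides of 0, all 6 above the signal filter, with a median of 0.20. The receptor chain gene Ifnar1 had 937 and 784 (0.25), and Ifnar2, the other chain, 365 and 409 (-0.16). The kinase genes differed in opposite directions. Jak1 had 1095 and 1574 (-0.52), while Tyk2 had 109 and 54.4 (0.83, or 1.0045 and just beyond 2-fold with low values raised to the lower quartile). Stat2, the STAT protein particular to type I and type III interferon signalling, had 484 and 326 (0.55). Its DNA-binding partner Irf9 had 160.4 and 142 (0.16).

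The interferon regulatory factor genes showed no shared direction. Irf3, present in resting cells and activated by phosphorylation after sensing, had 248 and 345 (-0.45). Irf7, which amplifies the production of interferon alpha, had 82.8 and 66.0 (0.27). Irf1, a factor induced strongly by interferon gamma, was measured by 2 probe sets that disagreed. They gave 32.8 and 61.5 (-0.67) in the first and 80.6 and 45.4 (0.65) in the second, so its mean of -0.01 stands for no agreed level.

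Irf7 is the gene of the list nearest to the imprinted cluster by which the genotypes differ. In gene order along chromosome 7, taken from the RefSeq table of GRCm38.p6, it stood at place 1649 of 1734 measured genes, 46 places before Igf2, the paternally expressed growth factor gene, at place 1695. Igf2 had 7.48 and 1013 (-5.45). Of the 45 measured genes between them, 2 were 2-fold apart, against 7.63% of all genes. The Ifitm genes, which encode membrane proteins that block virus entry, stood between places 1633 and 1687, and Ifitm3 among them had 2381 and 2582 (-0.12). The differences of the other Ifitm genes of this stretch were -0.84 for Ifitm1 (the mean of 2 probe sets that differ in size), -0.35 for Ifitm10, -0.34 for Ifitm5, 0.10 for Ifitm2 and 0.22 for Ifitm6. Irf3 lies far from there, at place 637. Where the duplicated segment begins is not stated in the labels, and none of these genes was placed inside or outside it.

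Genes of feedback and of ubiquitin-like modification were within 2-fold. Trim25, a ubiquitin ligase that assists the sensor RIG-I, had 159.9 and 296 (-0.83), the largest difference among the genes of the list above the filter together with that of Tyk2. Usp18 encodes the protease that removes the ubiquitin-like protein Isg15 from its targets and that restrains the receptor at Ifnar2. It had 60.3 and 76.7 (-0.28). Parp14, which encodes an ADP-ribosyltransferase, had 49.1 and 36.9 (0.30).

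The 13 antiviral effector genes spread most widely, from -1.45 to 1.07, with 7 above 0 and a median of 0.19. This role also held most of the genes under the signal filter, 9 of its 13. Without the Ifit, Oas, Mx and Gbp families, whose members resemble each other, the median of the remaining 3 (Rsad2, Eif2ak2 and Bst2) was -0.50.

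Eif2ak2 encodes PKR, a kinase that binds double-stranded RNA and halts translation. It had 11.6 and 59.6, a 2.74-fold difference (log2 difference -1.45) and the largest of the list. With a pseudocount of 64 it was -0.71 and no longer beyond 2-fold, and with a pseudocount of 1 it was -2.26.

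The 3 Ifit genes of the list were all lower in MatDup.dist7, by unequal amounts. Ifit1 encodes a protein that binds RNA with foreign ends and blocks its translation. It had 18.1 and 59.1, a 2.21-fold difference (-1.14, or -0.59 with a pseudocount of 64). Ifit2 had 25.7 and 35.4 (-0.30). Ifit3, the only one above the filter, had 93.4 and 102 (-0.11). Ifit3b, a relative outside the list and under the filter, went the other way at 27.1 and 21.1 (0.22).

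Mx1 and Mx2 encode dynamin-like GTPases that trap viral components, and both were higher in MatDup.dist7. Mx1 had 41.9 and 11.5, a 2.10-fold difference (1.07). It fell short of 2-fold with a pseudocount of 64 (0.49), with that floor (0.93) and with median centring (0.995). Mx2 had 26.8 and 6.17 (0.95), which was 1.96 with a pseudocount of 1 and 0.29 with the floor. These genes are neighbours of similar sequence, and signal shared between their probe sets was not tested.

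**Figure D4:**
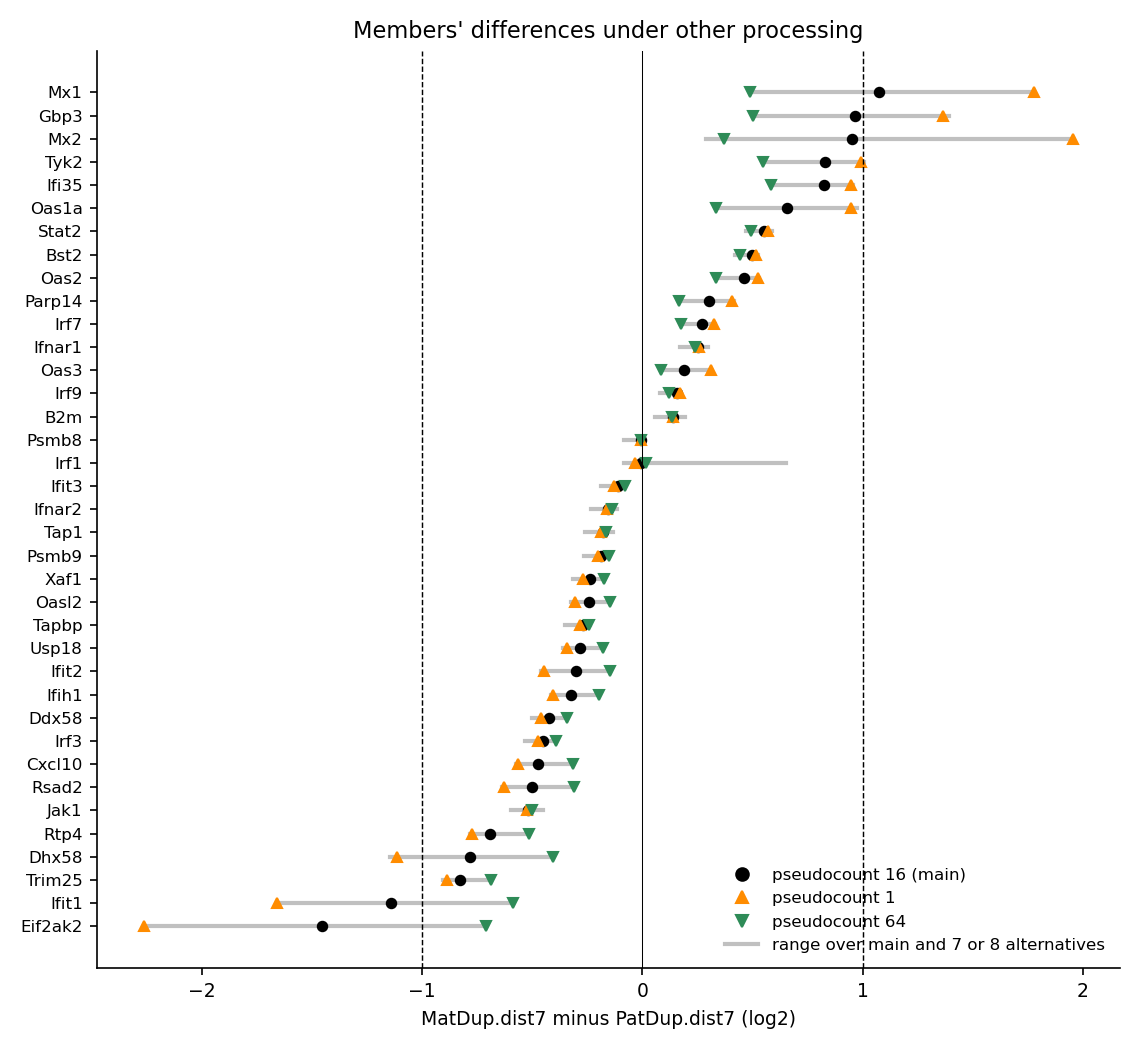
Difference between arrays (log2, MatDup.dist7 minus PatDup.dist7) of the 37 genes with a pseudocount of 16 (black), 1 (orange) and 64 (green), and the range over every alternative run (grey); dashed lines mark 2-fold. The ranges of Eif2ak2, Ifit1, Mx1 and Mx2 are the widest, and that of Irf1 crosses 0 because its probe sets disagree.

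Of the 4 Oas genes 3 were higher in MatDup.dist7, all within 2-fold. Their enzymes make oligoadenylates that activate the RNA-degrading enzyme RNase L. Oas1a had 46.4 and 23.6 (0.66), Oas2 131 and 90.6 (0.46) and Oas3 24.1 and 19.2 (0.19). Oasl2, a relative, had 50.7 and 63.0 (-0.24). Oas2 alone of these lay above the signal filter, and Oas1a has near-identical copies that its probe set could share.

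The remaining effectors went both ways. Rsad2 encodes viperin, an enzyme that makes a chain-terminating nucleotide, and had 48.6 and 75.5 (-0.50). Bst2 encodes tetherin, which holds budding virus at the cell surface, and had 453 and 316 (0.50). Gbp3, a guanylate-binding protein gene, had 57.6 and 21.7 (0.96), and reached 1.37 with a pseudocount of 1 and 1.39 with the floor, both beyond 2-fold.

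Of 4 other induced genes, 3 were lower in MatDup.dist7. Ifi35, an induced leucine zipper protein gene, was the exception at 141 and 72.6 (0.82). Rtp4, a receptor transporter gene, had 94.9 and 163 (-0.69), and Xaf1, which encodes a partner of an apoptosis inhibitor, had 106 and 128 (-0.24). Cxcl10, the chemokine that attracts activated T cells, had 64.6 and 96.1 (-0.48). All 4 lay above the filter.

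Among the roles of the list, the 5 antigen processing genes were the most alike between arrays, with a median of -0.18 and a range of -0.27 to 0.14. The immunoproteasome subunit genes Psmb8 and Psmb9 had 139.9 and 141 (-0.01) and 176 and 203 (-0.19). Tap1, which encodes a subunit of the peptide transporter, had 443 and 504 (-0.18), close to Psmb9, whose promoter window overlaps its own. Tapbp, which encodes the loading factor tapasin, had 326 and 397 (-0.27). B2m, the light chain of class I molecules, had 2716 and 2468 (0.14). All 5 lay above the filter and none reached 2-fold under any alternative run. Genes outside the list were less alike. Tap2 had 235 and 149 (0.60), above the filter and opposite in sign to Tap1. Of the 20 other antigen processing genes measured, 7 differences were above 0 and 13 below. The class I genes H2-K1 and H2-D1 had no value here.

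Presence of the response element core did not go with one direction. The 13 measured genes with a core had a median difference of -0.11, with 6 above 0 and 2 at least 2-fold apart (Ifit1 and Eif2ak2). The 17 measured genes whose windows lacked it had a median of -0.18, with 5 above 0 and none 2-fold apart. Across all genes 51.4% were above 0 and 7.63% were 2-fold apart, or 12.0% of genes under the signal filter. Both Ifit1 and Eif2ak2 lay under it, and a link between the core and the size of a difference was not tested. Mx1 had no window and so was in neither set.

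Other genes of the pathway, 131 measured of 155 listed, also went both ways. Of these, 16 were at least 2-fold apart (12.2%, against 7.63% of all genes), 6 of them in favour of MatDup.dist7 and 10 the other way, with a median of -0.11. Of the 16, 6 lay above the signal filter. Medians by role lay between -0.17 and 0.03.

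Among 15 sensing and adaptor genes, Zbp1, a sensor of left-handed nucleic acid, was the one beyond 2-fold, listed at 0.0150 and 27.2 (-1.43). Of 13 interferon genes, Ifna4 (39.9 and 6.80, 1.29) and Ifnk (34.4 and 6.40, 1.17) were higher in MatDup.dist7, both under the filter. Ifnb1, the first interferon of fibroblasts, was within 2-fold at 148 and 118 (0.29). None of 22 further receptor, STAT and feedback genes reached 2-fold, and the largest difference was that of Irf8, a factor of myeloid cells (42.4 and 91.9, -0.89).

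Of 61 other induced effectors, 9 were beyond 2-fold, 4 with the higher value in MatDup.dist7 and 5 with the lower. Of all genes 7.63% were beyond 2-fold, 4.47% higher in MatDup.dist7 and 3.16% lower. Ly6e, a membrane protein gene that restricts coronavirus entry, had 958 and 2119 (-1.13). Zc3hav1, which encodes the zinc-finger antiviral protein, had 95.0 and 241 (-1.21), and the nuclear protein gene Ifi207 had 35.3 and 117 (-1.37). These 3 lay above the filter. Ddx60, a helicase gene, had 34.8 and 1.55 (1.53), whereas Gbp9 (4.72 and 36.2, -1.33) and Ms4a4c (3.20 and 25.1, -1.10) were higher in PatDup.dist7, all 3 under it.

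Of 20 other antigen processing genes, 4 reached 2-fold, each with the higher value in PatDup.dist7, where 3.16% of all genes did so (7.63% in either direction). Erap1, which trims peptides for class I, had 41.4 and 100.2 (-1.02), and the tapasin relative gene Tapbpl 24.4 and 68.3 (-1.06). Cd74 (6.08 and 45.6, -1.48) and H2-Ab1 (8.59 and 49.0, -1.40) serve class II presentation, a task of professional antigen-presenting cells, and both lay under the signal filter. The class II genes of the list went both ways. H2-Aa had 5.89 and 16.4 (-0.57) and H2-DMa 108 and 125 (-0.18), whereas H2-Eb1 had 57.0 and 26.7 (0.77) and Ciita, the class II transactivator gene, was listed at 11.1 and 0.000778 (0.76). H2-DMa alone of these lay above the filter. Markers of macrophages, such cells, were read beside these values. Of 15 macrophage markers 11 differences were below 0, 14 markers lay above the filter and none was under 1, with a summed intensity of 7329 and 8253. Their part in the class II values was not tested, and in bulk RNA fewer cells of a type and less RNA per cell cannot be told apart.

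**Figure D5:**
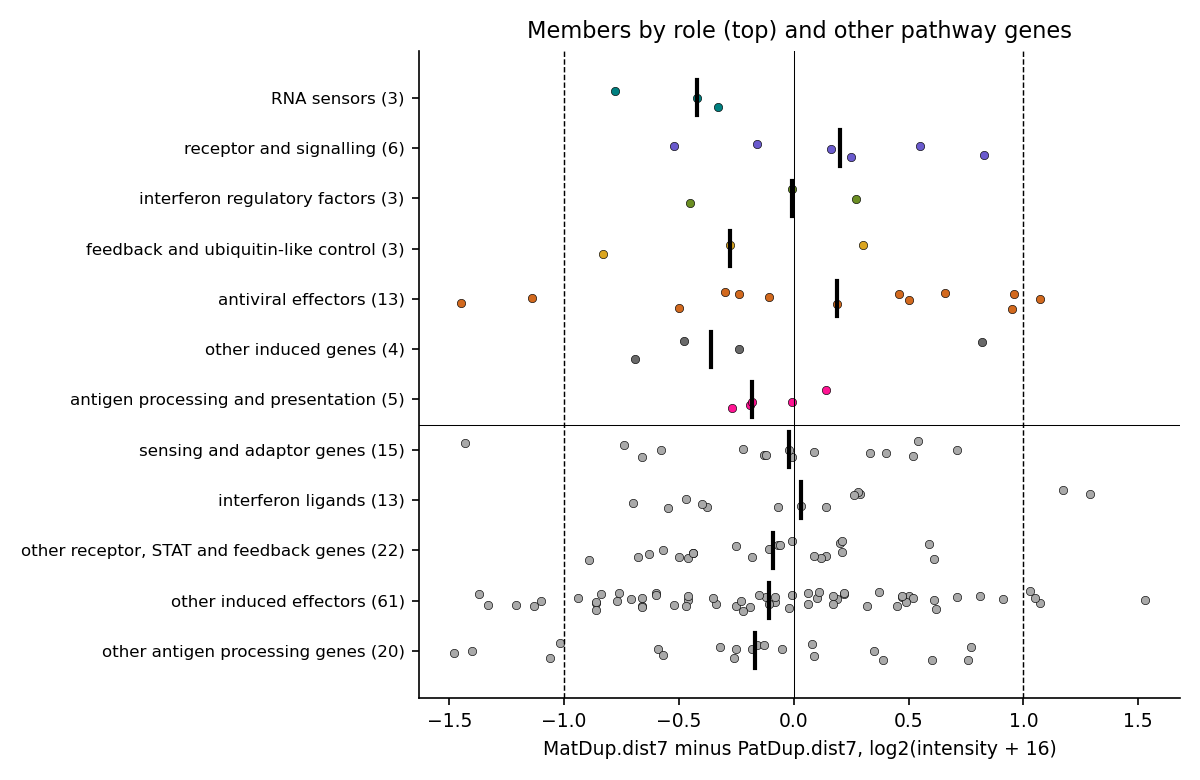
Difference between arrays (MatDup.dist7 minus PatDup.dist7, log2(intensity + 16)) of each measured gene, for the list by role (coloured) and for other pathway genes (grey), with the number of genes in brackets; black bars are medians and dashed lines mark 2-fold. The antiviral effectors spread from -1.45 to 1.07, and the antigen processing genes of the list lie between -0.27 and 0.14.

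Facts of the whole series bear on these values. Intensities had a median of 68.6 and 64.2. Of 13 fibroblast markers, 12 lay above the filter on these arrays, and 10 had the lower value in MatDup.dist7, with Dcn (142 and 592, -1.95) and Postn (520.3 and 1788, -1.75) beyond 2-fold. Of 7 epithelial markers 6 were higher in MatDup.dist7, with Krt19 (152 and 18.8, 2.27) and Krt5 (23.2 and 1.5, 1.16) beyond 2-fold, and their summed intensity was 785 and 445. Their part in the values of the list was not tested. Of the macrophage markers, 11 of 15 were lower in MatDup.dist7 (median -0.43) and Mrc1 was beyond 2-fold (31.7 and 103, -1.32), while Csf1r had 855 and 746 (0.19) and Adgre1 548 and 273 (0.96). The pan-leukocyte marker Ptprc had 113 and 137, the plasmacytoid dendritic cell marker Siglech 37.9 and 17.1, and the endothelial marker Pecam1 140.2 and 144. Sex-linked transcripts differed, with the Y-linked Eif2s3y at 112 and 6.44 and Xist, which silences an X chromosome in female cells, listed at 0.00166 and 91.2, so genotype and the sex of the cultures cannot be told apart.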

How the data were processed

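Total RNA of 2 cultures was labelled by the Affymetrix whole-transcript protocol for 1 array of each genotype, as the labels' protocols state. The deposited table gives 1 linear intensity for each of 35557 probe sets and array. Affymetrix Expression Console is the tool named in the submitters' processing notes; its normalization settings are not given in the sources used.

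By the platform annotation 21789 probe sets had 1 symbol, 1621 several and 12147 none. Gene identifiers of 21698 matched the RefSeq table of GRCm38.p6. With Python 3.11.15 and pandas 2.3.3, log2(intensity + 16) was averaged over the probe sets of a gene, and the 2-fold rule was applied. The design allowed for log2 values, but the deposited intensities were linear. Promoter sequences are from RefSeq.

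The members, roles, gene lists and pseudocount were chosen with earlier results of these data known. All members are named. Of other lists, up to 6 genes at least 2-fold apart by size (or the largest) are named, and set markers. Ifnb1, Tap2, Cmpk2, Slfn1, the Ifitm genes, further class II genes and further Gbp, Oas and Ifit genes are named outside this rule. The calculation was tested on simulated data with planted changes, scored only in genes above the signal filter. Mx1, Ifit1 and Eif2ak2 lay under it, so the simulation does not cover such genes. With 1 array per group there was no test; the number of arrays limits the precision. The alternatives were other pseudocounts, scalings, filters, probe-set rules, fold rules and omitted gene families.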

Additional observations from a re-analysis of the deposited data

How the results depend on the processing

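The median difference of the list stayed below 0 under all 9 alternatives run, from -0.23 to -0.13. Under each alternative run 36 of 37 genes kept their sign, and Irf1 did not (0.65 with its brightest probe set). For a gene with 1 probe set this was largely fixed in advance. Other pseudocounts, floors and filters cannot reverse its sign, and only the other scalings of the arrays could. The number of genes at least 2-fold apart moved with the treatment of dim signal. It was 6 of 37 with a pseudocount of 1 (19.5% of all genes), 5 with low values raised to the lower quartile (9.05%) and 0 with a pseudocount of 64 (0.868%). It was 0 of 25 with the signal filter, where 9 differences were above 0, and 1 of 27 without the Ifit, Oas, Mx and Gbp families, where 9 also were; there the effector median was -0.50 against 0.19. A 1.5-fold rule gave 11 (27.9% of all genes) and a 3-fold rule 0 (1.37%). Medians of other lists changed sign in 3 further cases, the regulatory factors at 0.01 with a pseudocount of 64 and 0.27 with the brightest probe set, and the interferon ligands at -0.05 with median centring. Of 126 such values under alternatives, 116 moved by less than the spread used (1 standard deviation between probe sets, or 1.5 times for counts). This is a loose measure, because that standard deviation, 0.51, exceeded the size of every median with the main settings. A change of sign could thus pass as unmoved. With the signal filter the median of the feedback genes was larger in size, at -0.55. Some values also could hardly move. Leaving out values under 1 changed no gene of the list, and the brightest probe set changed Irf1 alone. No paired analysis was possible because each genotype has 1 array. For genes under the signal filter the size of a difference depends on the pseudocount.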

Other observations

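Guanylate-binding protein genes, chosen after the values were seen, went both ways. On chromosome 3, beside Gbp3 (0.96), Gbp7 had 34.2 and 12.7 (0.81) and Gbp5 106 and 78.5 (0.37). Of those on chromosome 5, Gbp4 had 7.26 and 4.69 (0.17), Gbp8 22.0 and 44.0 (-0.66) and Gbp9 4.72 and 36.2 (-1.33). Gbp5 alone of these lay above the signal filter, and no difference was tested.

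Further Oas genes, also chosen after their values were seen, were higher in MatDup.dist7 like most of the listed ones. Oas1b had 68.2 and 25.1 (1.03), Oas1c 41.3 and 24.6 (0.50) and Oasl1 138 and 119 (0.19). In the Ifitm cluster the probe sets of Ifitm1 had 52.3 and 158 (-1.35) and 263 and 333 (-0.32), so the size of its difference depends on the probe set.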
